A study of Mus musculus with 12 samples.

Results

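The genes described here encode the proteins of the cytosolic ribosome. They were taken by symbol: a protein-coding mouse gene of Ensembl release 96 counted as a member if its symbol was Rpl or Rps followed by a number, with an optional a, x or l, or was Rplp0, Rplp1, Rplp2 or Rpsa. The rule found 83 members of 36047 genes, 51 of the large (60S) subunit and 32 of the small (40S) subunit, and used no measured value. Another 6 symbols fitted the pattern but belonged to genes that are not protein-coding, among them Rps4l, a transcribed processed pseudogene related to Rps4x.

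Ribosomal proteins assemble with ribosomal RNA in the nucleolus, and each subunit needs its proteins in near equal numbers, so cells hold their mRNAs at high and matched levels. Most of these mRNAs begin with a short run of pyrimidines, the 5′ terminal oligopyrimidine tract, through which the kinase complex mTORC1 controls their translation. Each gene has also given rise to many processed pseudogenes, copies of the spliced mRNA that were inserted elsewhere in the genome, and some copies are almost identical to their source.

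The study grew organoids from cochlear epithelial cells of mice of both sexes and asked how the secreted Activin antagonist FST and the RNA binding protein LIN28B, alone and together, change the expression of cochlear genes. Control mice carried the doxycycline-dependent activator alone (R26rtTA*M2/+), and it was present in every other mouse as well. The FST condition added the TRE-FST-288 transgene, the LIN28B condition the Col1a1-TRE-LIN28B transgene, and the FST+LIN28B condition both, so that human FST-288 and human LIN28B were induced in any cell that expressed the activator. Mice were 5 days old (stage P5), and organoids of all conditions grew for 7 days in Matrigel with EGF, FGF2, CHIR99021 and VPA and with doxycycline at 0.5 μg/ml. Each condition had 3 libraries, which the methods take from 3 different animals, and the replicate numbers are those of the labels. Where values of all 12 libraries are listed, they follow these numbers, and the words with FST, with LIN28B and with both stand for the 3 induced conditions.

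The libraries held 42.7 to 65.3 M estimated counts. Fst was at 7.72 to 13.1 CPM (counts relative to a library size adjusted by TMM) in control. It was at 445, 116 and 326 CPM in FST libraries 1 to 3, at 17.3 to 22.5 CPM in LIN28B and at 334 to 817 CPM in FST+LIN28B. Lin28b was at 21.2 to 24.5 CPM in control, 193 to 480 CPM in LIN28B and 187 to 306 CPM in FST+LIN28B. All 12 markers of cochlear epithelium and supporting cells passed the filter on low counts, with summed levels of 2549 to 3554 CPM over the 12 libraries. The summed neuronal markers were at 117 to 184 CPM, Schwann cell markers at 74.998 to 94.4 CPM, mesenchymal markers at 486 to 1065 CPM, and immune, endothelial and erythroid markers at no more than 6.15, 25.2 and 6.78 CPM. FST library 2 stood apart from the other 11. It was the shallowest library, and it held the lowest share of counts in ribosomal protein genes, in 78 mitochondrial ribosomal protein genes (0.245% against 0.263% to 0.304%) and in other genes shorter than 1000 bases (4.64% against 5.24% to 6.32%), and the highest share in retained-intron transcripts of non-members (6.91% against 3.86% to 5.27%). Results that rest on it are given with and without it.

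A promoter window of RefSeq (build GRCm38.p6, 250 bases before to 50 after the annotated start) could be matched to 63 of the 83 members. In 23 of them (36.5%) a C that lay within 5 bases of the annotated start was followed by 6 or more bases that were each C or T, against 2066 of 27025 genes (7.64%) in the same windows. The letters CCGGAAG, read on either strand, were in the windows of 26 members (41.3%) and of 2683 genes (9.93%). The 30 bases around the annotated start, 10 before and 20 from it on, are shown for some of the members to which the results below return. Most of those shown have such a run, so they do not stand for the 36.5% above. The windows of Rpl19, Rps7 and Rps12, among others named below, have no such run and are not shown. Capitals mark the run of pyrimidines near the start, and Rps27l and Rpl7l1 have none that starts within 5 bases of the annotated start.
Rps18, chr17:33955646-33955675, minus strand: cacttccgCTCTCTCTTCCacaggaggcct
Rps27, chr3:90213629-90213658, minus strand: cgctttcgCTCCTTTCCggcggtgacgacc
Rps6, chr4:86857348-86857377, minus strand: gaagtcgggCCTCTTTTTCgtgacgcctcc
Rpl38, chr11:114668570-114668599, plus strand: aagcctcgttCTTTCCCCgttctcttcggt
Rplp2, chr7:141447641-141447670, plus strand: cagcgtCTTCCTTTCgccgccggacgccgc
Rpl22l1, chr3:28805498-28805527, plus strand: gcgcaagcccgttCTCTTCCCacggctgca
Rps27l, chr9:66946076-66946105, plus strand: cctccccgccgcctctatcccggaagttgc
Rpl7l1, chr17:46782637-46782666, minus strand: gctgcgcaagcgcagtagctgaagcaccgg

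Ribosomal protein mRNAs were abundant in every library. Of the 83 members, 80 passed the filter on low counts, and their mean level over the 12 libraries ran from 105 to 4735 TPM (counts per effective length, scaled to the same sum in each library), with a median of 1621 TPM and 63 members above 1000 TPM. The 3 highest means belonged to Rpl41, which encodes the smallest ribosomal protein (4735 TPM, libraries from 3859 to 5378), Rpl13a, also part of an interferon-induced translation silencer (3826 TPM, 2967 to 4358) and Rps27 (3465 TPM, 2848 to 3674). The 3 lowest belonged to Rpl12, at the base of the stalk (105 TPM, 88.7 to 117), the paralog Rpl7l1 (117 TPM, 86.3 to 147) and Rpl5 (143 TPM, 123 to 168). Of these, Rpl12 and Rpl5 received only a small part of the reads that match them, as described below. Another 3 members did not pass: Rpl10l, which in mouse acts in the testis, had no count in any library, which allows up to 3 counts a library, Rpl39l had 21 counts in LIN28B library 3, 4 in FST+LIN28B library 2 and none elsewhere, and Rpl3l, the striated muscle paralog of Rpl3, had 1 to 7 counts a library.

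**Figure D1:**
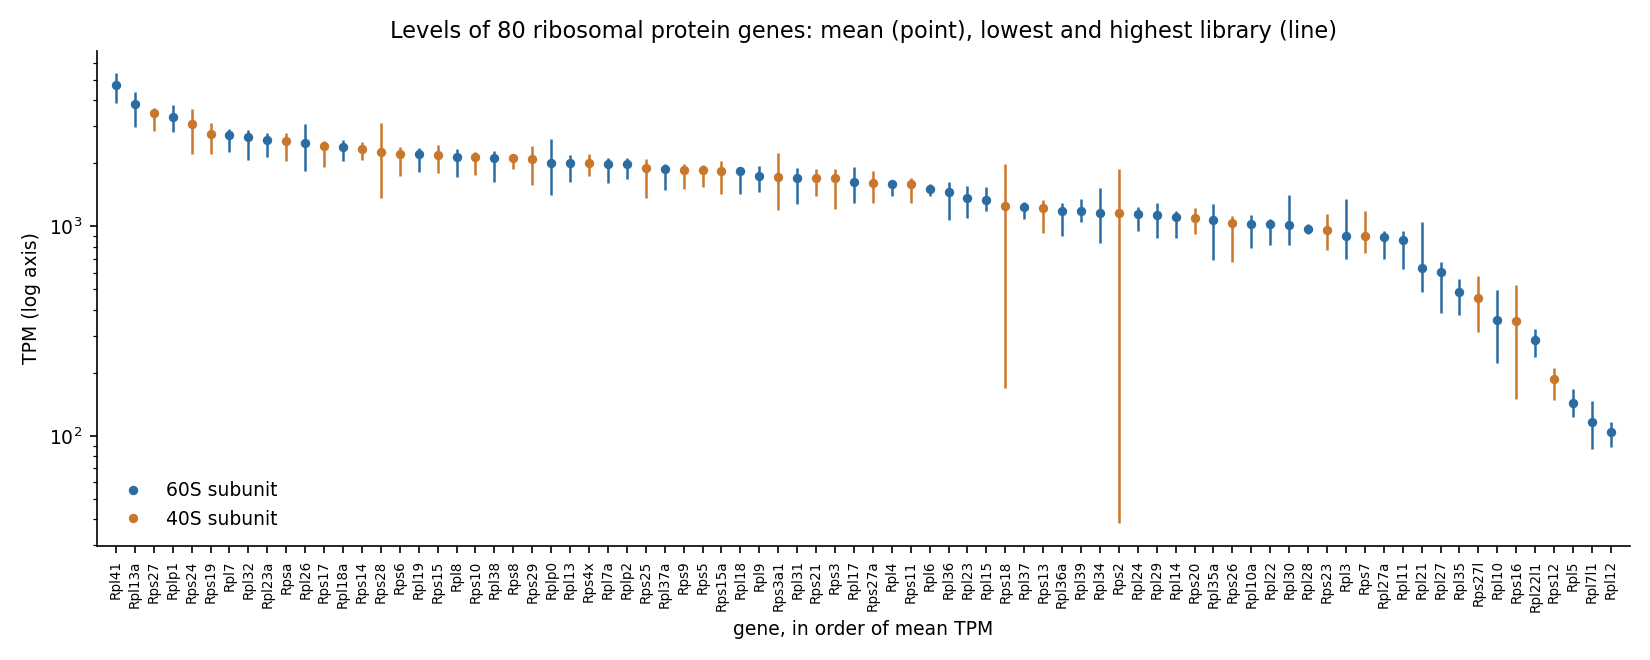
Mean TPM of the 80 members that passed the filter (points, log axis) with the lowest and highest of the 12 libraries (lines), ordered by mean and coloured by subunit. Means ran from 105 TPM (Rpl12) to 4735 TPM (Rpl41), and the longest lines are those of Rps2 and Rps18.

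Together the members took a like share of the counts in the 4 conditions. Their share was 4.42%, 4.72% and 4.72% in control libraries 1 to 3, 5.09%, 3.60% and 4.88% with FST, 4.65%, 4.47% and 4.92% with LIN28B, and 4.62%, 4.66% and 4.54% with both. FST library 2 was the lowest of all and FST library 1 the highest, so the FST condition spanned the range of the other 3. The means were 4.62% ± 0.170 (SD, n = 3) in control, 4.52% ± 0.802 with FST, 4.68% ± 0.226 with LIN28B, and 4.61% ± 0.0577 with both. In bulk RNA, a change in the cells that make up a sample and a change in RNA per cell cannot be told apart.

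No difference in this share was larger than the spread between libraries. The difference from control was -0.0948 percentage points with FST, 0.0663 with LIN28B and -0.0108 with both, with two-sided exact permutation p = 1, 0.9 and 1, where 3 against 3 libraries cannot go below 0.1. The 6 libraries with LIN28B differed from the 6 without by 0.0751 points (p = 0.86, exact over 400 arrangements within FST status), and the 6 with FST from the 6 without by -0.0859 points (p = 0.82). Without FST library 2, the FST difference from control was 0.364 points, with both remaining FST libraries above every control library (exact permutation p = 0.1, the smallest that 2 against 3 allow), the FST difference over 11 libraries was 0.106 points (p = 0.41) and the LIN28B difference -0.118 points (p = 0.345). Adjusted over the 5 comparisons with all libraries (Benjamini-Hochberg), every p was 1.

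**Figure D2:**
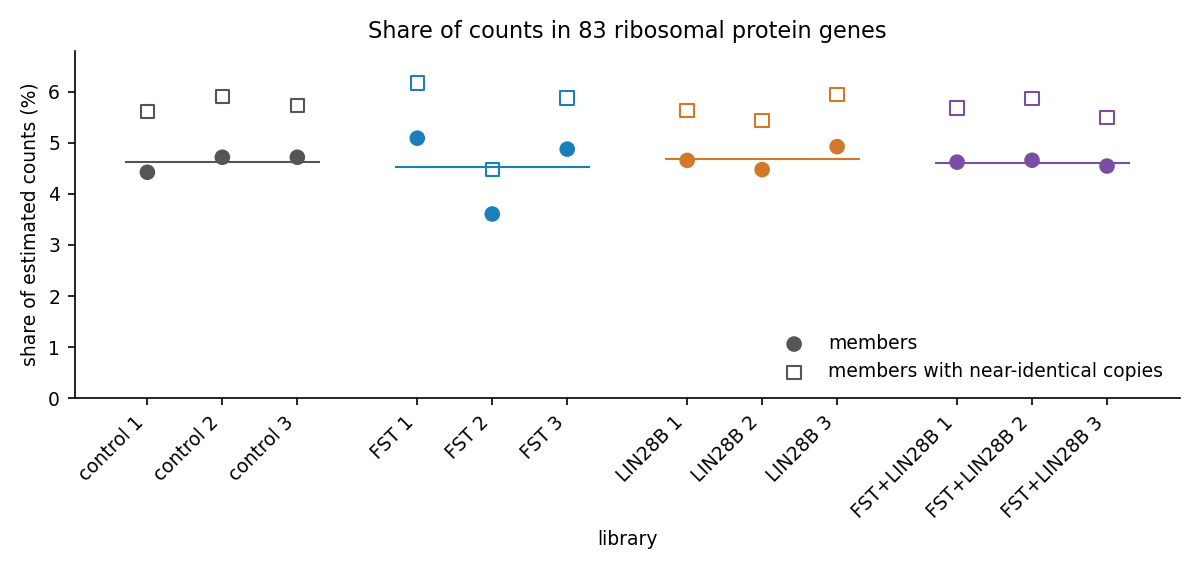
Share of estimated counts (%) in the 83 members (filled circles) and in the members with their near-identical copies (open squares) by library, with the mean of the circles in each condition (lines). FST library 2 is the lowest at 3.60%, and the other 11 libraries lie between 4.42% and 5.09%.

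No ribosomal protein gene passed the test in any comparison. A single edgeR quasi-likelihood fit took in all 12 libraries, with a threshold of 0.01 on the Benjamini-Hochberg adjusted p over 18780 genes, and the comparisons share their control libraries. FST against control called 0 of 80 members, where 0.0213% of all genes were called, and 3 members had an unadjusted p under 0.05, against 3.74% of all genes. LIN28B against control called 0 members and 3.43% of all genes, with 4 members and 21.2% of all genes under an unadjusted 0.05. FST+LIN28B against control called 0 members and 1.26% of all genes, with 1 member and 15.8% of all genes under 0.05. In both LIN28B comparisons the share of members under an unadjusted 0.05 was below that of all genes.

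The remaining contrasts gave the same count. FST+LIN28B against LIN28B called 0 members and 0.506% of all genes, with 0 members and 10.2% of all genes under an unadjusted 0.05. FST+LIN28B against FST called 0 members and 0.953% of all genes, with 1 member and 15.4% of all genes under 0.05. The interaction of FST and LIN28B called 0 members and 0.00532% of all genes, with 2 members and 3.58% of all genes under 0.05. A joint test across the 4 conditions called 0 members and 5.03% of all genes, and Rpl29 and Rps27l were the only 2 members (against 21.4% of all genes) under 0.05. Limma on log2(TPM + 1) also called 0 members in every comparison, whereas DESeq2 called Rpl29 in LIN28B against control, in FST+LIN28B against control and in the joint test. The share of all genes that limma or DESeq2 called is not given here or below. Their calls can therefore not be set against such a share.

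The members' fold changes were small and lay close together. In FST against control their median log2 fold change was -0.02, beside 0.04 over all genes, and 24 of 80 were above 0. In LIN28B against control it was 0.02, beside -0.03 over all genes, with 51 above 0, and in FST+LIN28B against control 0.04, beside -0.01, with 58 above 0. The middle 50% of members lay between -0.03 and 0.13 in LIN28B and between -0.02 and 0.10 in FST+LIN28B. The median absolute value was 0.08 and 0.07 in these 2 comparisons, beside 0.23 and 0.20 over all genes. Small subunit members had a median of 0.01 in LIN28B and large subunit members one of 0.03.

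Complete separation of 3 libraries from 3 was no more frequent among members than among all genes. In LIN28B the 3 libraries lay above all controls for 11 members (13.8%, beside 18.7% of all genes) and below for 1 (1.25%, beside 17.9%). In FST+LIN28B they lay above for 11 (13.8%, beside 15.2%) and below for 3 (3.75%, beside 15.1%). In FST 0 members were separated in either direction, beside 4.73% and 2.91% of all genes. The members above control in both LIN28B conditions were Rpl29, Rpl8, Rps19, Rps25, Rps27a and Rps27l, and the member below control in both was Rps24. All were named for this separation after their values were seen. FST+LIN28B lay above LIN28B for 0 members (8.87% of all genes) and below for 2 (8.66%), and above FST for 2 (8.78%) and below for 1 (7.85%).

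FST library 2 set the sign of the FST medians. Its members had a median of -0.47 on the log2 scale relative to their 12-library mean, and 79 of 80 lay below that mean, whereas the medians of the other 11 libraries lay between -0.09 and 0.17. Without it, the median member was at 0.16 in FST against control with 75 of 80 above 0, beside 0.02 over all genes, and at -0.12 in FST+LIN28B against FST, beside 0.02. Still 0 members were called in these 2 comparisons (beside 0.0158% and 0.901% of all genes), with 13 and 12 under an unadjusted 0.05 (beside 17.2% and 19.4% of all genes). LIN28B against control then called 1 member, Rps27l, beside 7.17% of all genes, and 12 members and 30.4% of all genes were under an unadjusted 0.05. Whether the depth, RNA quality or lower Fst level of FST library 2 has a part in these values was not tested.

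Many members share much of their sequence with other genes. A word of 31 bases, the length that the aligner indexes by default, served to measure this: in the most abundant coding transcript of 58 members, more than 50% of the words also occurred in other genes, with a median of 63.1% over the 83 members. A gene was taken as a copy where at least 50% of its transcript's words, and at least 150 words, lay in a member. By this definition 65 members had copies, 291 genes in all, of which 279 are annotated as pseudogenes. Copies held 17.0% to 21.2% of the counts of members and copies together in each library. Of the members, 9 received less than 50% of the counts of their family, and 48, members without copies among them, received more than 95%. Whether shared words set these shares was not tested.

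Rps18, a protein of the head of the small subunit, and Gm10260, a gene without introns annotated as protein-coding, show how close a copy can be. Rps18 (ENSMUSG00000008668.15) lies at chr17:33951999-33956001 of GRCm38, minus strand, with 5 coding exons, and the coding exon of Gm10260 lies on chr13:97760133-97760588, minus strand. Over 456 coding bases they differ at 4 (99.1% identical), and the longest stretch without a difference is 185 bases, beside reads of 50 bases from each end. Bases 133 to 432 of the coding sequences, which hold all 4 differences, are shown from GENCODE M21, with the bases of Gm10260 that differ in capitals.
Rps18: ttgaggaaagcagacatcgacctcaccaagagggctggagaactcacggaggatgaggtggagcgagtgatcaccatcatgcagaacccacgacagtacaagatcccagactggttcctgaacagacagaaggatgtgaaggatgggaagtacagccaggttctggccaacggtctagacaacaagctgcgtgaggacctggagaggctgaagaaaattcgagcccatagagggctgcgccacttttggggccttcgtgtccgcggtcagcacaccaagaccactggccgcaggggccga
Gm10260: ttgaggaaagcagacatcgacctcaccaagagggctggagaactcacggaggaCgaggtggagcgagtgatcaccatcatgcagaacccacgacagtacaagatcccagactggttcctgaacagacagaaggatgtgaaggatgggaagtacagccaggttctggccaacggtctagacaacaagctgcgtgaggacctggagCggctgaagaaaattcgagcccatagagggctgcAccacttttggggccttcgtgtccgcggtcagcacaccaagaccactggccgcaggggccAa

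The division of counts between a member and its copies fell on separate levels that differed from library to library. Rps18 was given 10.6%, 14.0% and 12.8% of its family's counts in control libraries 1 to 3, 62.7%, 8.01% and 60.1% with FST, 60.9%, 60.3% and 63.0% with LIN28B, and 60.5%, 11.5% and 65.4% with both. Rps2, a protein of the mRNA entry channel, was given 0.882%, 0.960% and 50.2% in control, 50.4%, 1.01% and 49.3% with FST, 49.3%, 48.3% and 50.1% with LIN28B, and 48.7%, 0.942% and 50.3% with both. Rpl29, a large subunit protein also known for binding heparin, was given 75.8%, 75.3% and 76.5% in control, 75.004%, 99.7% and 99.6% in FST, and 99.4% to 99.7% in all 6 libraries with LIN28B. For Rps2 and Rps18 the low level thus came from 4 and 5 libraries of 3 conditions, and for Rpl29 the low level came from the 3 controls and FST library 1.

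In all, 17 members had a gap of more than 5 points between neighbouring libraries in this share, and 17 had a range of more than 10 points. In Rpl26, 5 libraries lay between 65.5% and 67.4% and the other 7 at 99.7% or above. For Rpl34, 6 libraries lay between 66.2% and 68.4% and 6 at 99.7% or above, and these were not the same 6 libraries as for Rpl17. Rps24 was at 99.97% or above in the controls, FST libraries 1 and 3 and LIN28B libraries 1 and 2, and at 90.9% to 91.7% in the other 5. Rps2, Rpl26, Rpl34, Rpl17 and Rps24 are named here for their levels, after these were seen.

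**Figure D3:**
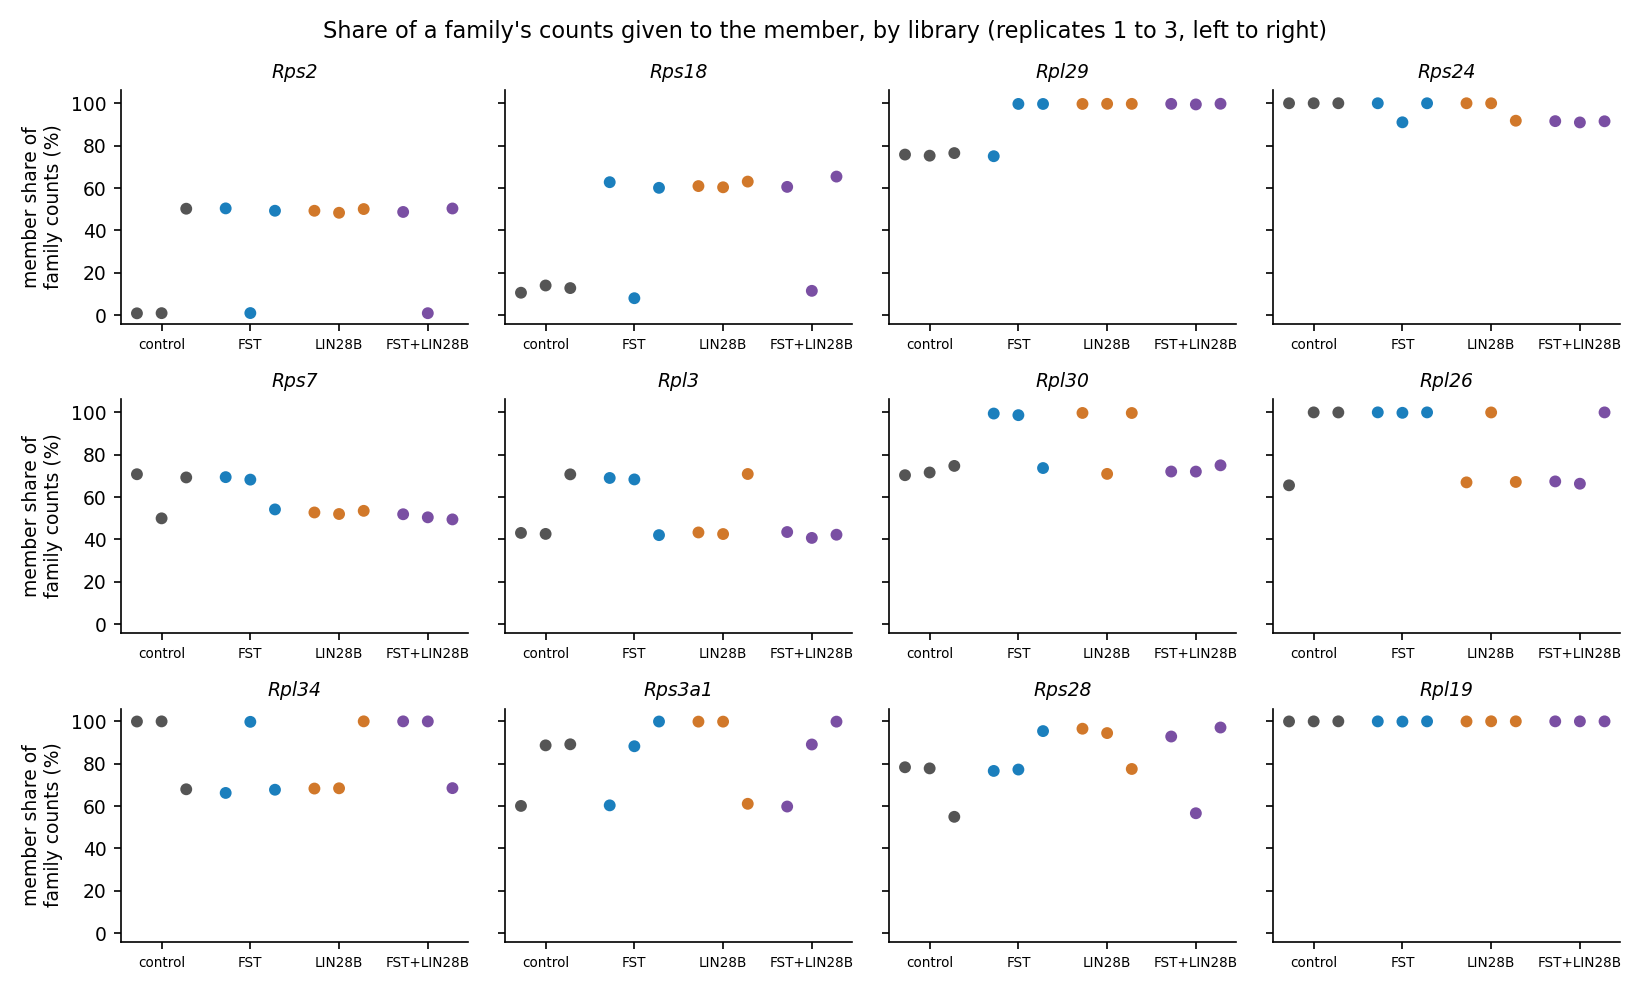
Share of a family's counts (%, member and near-identical copies together 100%) that was given to the member in each library, for 12 members, with the 3 replicates of each condition from left to right. Most panels show separate levels, such as 0.882% to 1.01% and 48.3% to 50.4% for Rps2, while Rpl19 stays at 99.8% or above.

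Adding the copies to their member brought the members of a library close together. The SD of the 80 members' log2 CPM deviations from their 12-library mean was 0.27 to 0.49 in each library when members were read alone, and 0.05 to 0.16 with the copies added. Over the 12 libraries, the highest level of a member was 1.62 times its lowest in the median, and up to 77.4 times for Rps2. With copies added the median was 1.60 and the highest ratio 3.31, that of Rps16, which stayed low in LIN28B library 1 (45.6 CPM alone, beside 86.1 to 151 CPM in the other 11 libraries). The ratio of small to large subunit counts ran from 0.636 to 0.734 for members alone and from 0.672 to 0.694 with copies. With copies added, the lowest level of 78 of 80 members was in FST library 2.

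**Figure D4:**
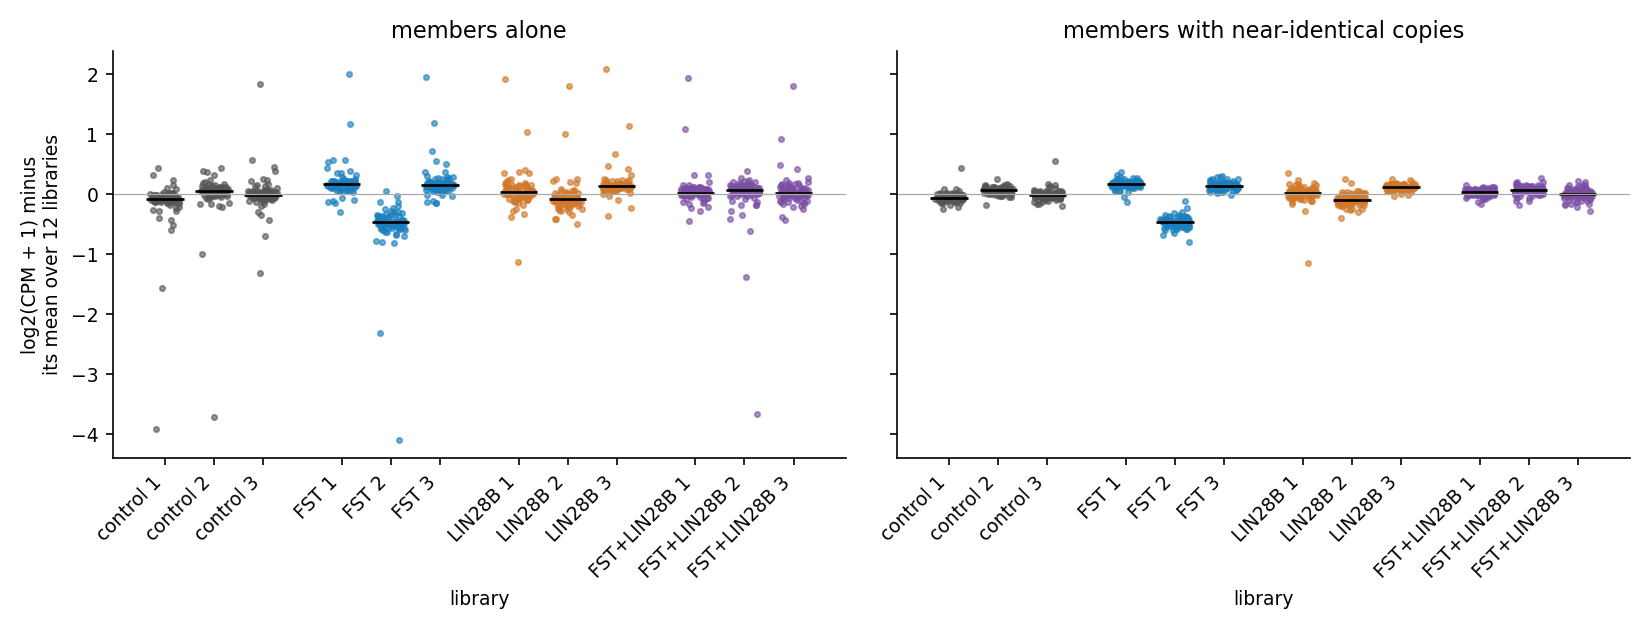
Deviation of each of 80 members from its mean over 12 libraries, as log2(CPM + 1), by library, for members alone (left) and with near-identical copies added (right), with the median of each library (black lines). Points draw together on the right, and those of FST library 2 lie low in both panels.

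With the copies added, edgeR called 0 members in all 7 tests, and neither Rpl29 nor Rps18 was among the 3 members of smallest p in any comparison. The share of all genes called was 0.0215% for FST, 3.53% for LIN28B and 1.29% for FST+LIN28B against control, 0.516% in FST+LIN28B against LIN28B, 0.978% in FST+LIN28B against FST, 0.00538% in the interaction and 5.13% in the joint test. Under an unadjusted 0.05 were 0 members for FST (3.71% of all genes), 3 for LIN28B (21.3%) and 0 for FST+LIN28B (15.9%) against control, 0 in FST+LIN28B against LIN28B (10.3%), 1 in FST+LIN28B against FST (15.5%) and 0 in the interaction (3.52%). The smallest adjusted p was 0.156, that of Rps27l in LIN28B. The median fold change of members was -0.03, 0.02 and 0.04 on the log2 scale in FST, LIN28B and FST+LIN28B. This addition was chosen after seeing the data.

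The single members of smallest p were largely those whose division moved. Rpl29 was at 324, 365 and 336 CPM in control, 386, 358 and 523 with FST, 460, 445 and 500 with LIN28B, and 491, 503 and 471 with both. All 6 libraries with LIN28B lay above the 3 controls, by 0.46 on the log2 scale in LIN28B (SE 0.13, edgeR adjusted p = 0.0548) and 0.52 in FST+LIN28B (SE 0.13, adjusted p = 0.0528). With its copies added, Rpl29 was at 428, 485 and 439 CPM in control, 461, 446 and 502 with LIN28B, and 492, 506 and 472 with both, and the conditions overlapped.

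Rps18 alone was at 84.8, 126 and 101 CPM in control, 566, 50.03 and 578 with FST, 516, 505 and 553 with LIN28B, and 533, 96.1 and 480 with both. The 3 LIN28B libraries lay above control by 2.34 on the log2 scale (SE 0.84, edgeR adjusted p = 0.141), while FST library 2 lay below the controls and FST+LIN28B library 2 within their range. With copies added Rps18 was at 800, 896 and 791 CPM in control and 848, 837 and 877 in LIN28B. Rps7, which binds the p53 regulator Mdm2 when free, was at 545, 394 and 567 CPM in control, 633, 379 and 469 with FST, 393, 358 and 426 with LIN28B, and 391, 383 and 379 with both. Its log2 fold change in FST+LIN28B against control was -0.39 (SE 0.18, edgeR adjusted p = 0.325), and its share of its family's counts was 49.9% to 70.7% in control and 49.4% to 51.9% in FST+LIN28B. Rps7 with its copies was at 770, 790 and 819 CPM in control and 754, 759 and 766 in FST+LIN28B, still below every control.

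Rps12, known from flies for its part in cell competition, and Rpl30, which binds kink-turn RNA, were 2 of the 3 members of smallest p in the interaction. Rps12 was at 67.8, 73.8 and 76.5 CPM in control, 68.3, 47.4 and 59.5 with FST, 69.9, 56.7 and 66.6 with LIN28B, and 65.8, 71.8 and 69.7 with both. It differed by -0.32 on the log2 scale in FST against control (SE 0.13) and by 0.42 in the interaction (SE 0.18), with edgeR adjusted p = 1 in both, and with copies added and FST library 2 left out these were 0.14 and -0.15. It received 4.59% to 6.48% of the counts of its family. FST against control also had Rpl29 (0.31, SE 0.13) and Rps18 (1.94, SE 0.83) among its 3 members of smallest p, again with edgeR adjusted p = 1. Rpl30 was at 208, 226 and 237 CPM in control, 377, 232 and 252 with FST, 336, 198 and 353 with LIN28B, and 216, 223 and 248 with both. Its interaction was -0.73 (SE 0.30, edgeR adjusted p = 1), and the 4 libraries in which it was given more than 98% of its family's counts were FST libraries 1 and 2 and LIN28B libraries 1 and 3. In FST+LIN28B against LIN28B, the 3 members of smallest p were Rpl30, Rpl15 and Rpl3, with log2 fold changes of -0.37, 0.17 and -0.33 and edgeR adjusted p of 0.712, 0.905 and 0.925.

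Rpl19 (ENSMUSG00000017404.12, chr11:98026710-98030492), the large subunit gene that the study used as reference for RT-qPCR, was at 827 to 959 CPM in 11 libraries and lower in FST library 2. It was at 856, 924 and 848 CPM in control, 958, 629 and 940 with FST, 883, 841 and 959 with LIN28B, and 915, 920 and 827 with both. Control, LIN28B and FST+LIN28B overlapped, whereas FST libraries 1 and 3 lay above every control and every FST+LIN28B library and within the LIN28B range. The log2 fold change was -0.06 with FST (95% interval -0.38 to 0.26), 0.03 with LIN28B (-0.29 to 0.35) and 0.02 with both (-0.30 to 0.34), and the last 2 were -0.0182 and -0.0255 when libraries were scaled to the summed members. At least 99.8% of its family's counts were its own in every library.

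The stalk of the large subunit, which recruits the elongation factors, is built of Rplp0 with dimers of Rplp1 and Rplp2. Rplp0 was at 1551, 1793 and 1642 CPM in control, 1826, 1193 and 1369 with FST, 1073, 985 and 1732 with LIN28B, and 1205, 1619 and 1070 with both. Its log2 fold change was -0.40 in LIN28B (SE 0.23, edgeR adjusted p = 0.382), and in each condition with LIN28B 1 library lay in the control range. Rplp1 was at 785 to 810 CPM in control and 654 to 783 in FST+LIN28B, and Rplp2 at 474 to 503 in control and 508 to 533 in FST+LIN28B. The 2 partners were thus separated from control in opposite directions in FST+LIN28B, and neither passed the test.

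The 5S particle is made of 5S ribosomal RNA with Rpl5 and Rpl11, which bind Mdm2 when ribosome assembly fails. Rpl5 was at 125 to 139 CPM in control, 105 to 161 with FST, 114 to 158 with LIN28B, and 133 to 161 with both, with 8.95% to 11.7% of its family's counts. Rpl11 was at 335 to 365 CPM in control, 232 to 414 with FST, 363 to 411 with LIN28B, and 375 to 411 with both. Among other large subunit proteins, Rpl3, which reaches the peptidyl transferase centre, was at 575, 620 and 952 CPM in control, Rpl10, which joins late in assembly, at 117, 184 and 144, and Rpl38, whose loss gives the Tail-short mouse, at 291, 307 and 298. In FST+LIN28B these were at 577 to 635, 144 to 147 and 312 to 324 CPM. Of these 3, only Rpl38 was separated from control in FST+LIN28B, by 1.07-fold in the fit, and its edgeR adjusted p was 0.835.

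Among small subunit members, Rps6, the substrate of S6 kinase, was at 967, 1103 and 1112 CPM in control, 1162, 735 and 1181 with FST, 1098, 1018 and 1156 with LIN28B, and 1069, 1079 and 1121 with both. Its log2 fold change in LIN28B was 0.04 (95% interval -0.31 to 0.39). Rps19, which is mutated in Diamond-Blackfan anaemia in people, was at 672, 741 and 680 CPM in control, 776, 526 and 770 with FST, 838, 768 and 819 with LIN28B, and 808, 861 and 753 with both. All 6 libraries with LIN28B lay above control for Rps19, by 0.21 in both conditions (SE 0.14, edgeR adjusted p = 0.458 in LIN28B and 0.550 in FST+LIN28B), and FST libraries 1 and 3 lay there as well.

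Rps27a, which is made as a fusion with ubiquitin, was at 527, 550 and 541 CPM in control, 639, 401 and 607 with FST, 665, 603 and 656 with LIN28B, and 580, 610 and 627 with both. Again the 6 libraries with LIN28B and FST libraries 1 and 3 lay above control. Rpsa, also known as a laminin receptor, was at 1568 to 1728 CPM in control and 1479 to 1825 in the 6 libraries with LIN28B, Rps3, at the entry of the mRNA channel, at 936 to 1081 and 1045 to 1165, and Rps4x, which is X-linked in mouse, at 1085 to 1185 and 905 to 1131. In these 3 the ranges overlapped.

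The paralogs Rps27l, Rpl7l1 and Rpl22l1, which the symbol rule takes in, were among 11 members above every control in all 3 LIN28B libraries. This was 13.8% of members, beside 18.7% of all genes. At least 98.1% of the counts of the families of these paralogs were their own in every library. Rps27l (ENSMUSG00000036781.13, chr9:66946086-66949516, plus strand), a target of p53, encodes a protein close to that of Rps27 (ENSMUSG00000090733.6, chr3:90212522-90213651, minus strand). Over 252 coding bases they differ at 60 (76.2% identical) with no more than 11 matching bases in a row, so that, unlike Rps18 and Gm10260, they share no 31-base word in the coding sequence at matched positions. The coding sequences without stop codon are shown from GENCODE M21, with the bases of Rps27l that differ in capitals.
Rps27: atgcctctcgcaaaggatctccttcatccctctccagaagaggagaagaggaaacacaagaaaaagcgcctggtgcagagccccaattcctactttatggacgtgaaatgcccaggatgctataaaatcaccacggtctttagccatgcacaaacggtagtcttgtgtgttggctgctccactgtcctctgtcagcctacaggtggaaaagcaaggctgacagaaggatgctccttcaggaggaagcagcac
Rps27l: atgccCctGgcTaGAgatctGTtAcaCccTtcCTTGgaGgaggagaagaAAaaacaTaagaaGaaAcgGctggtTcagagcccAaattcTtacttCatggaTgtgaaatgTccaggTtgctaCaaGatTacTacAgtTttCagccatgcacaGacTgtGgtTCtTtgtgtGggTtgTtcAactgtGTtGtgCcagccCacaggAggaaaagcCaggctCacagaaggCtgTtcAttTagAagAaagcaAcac

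Rps27l was at 89.4, 101 and 90.8 CPM in control, 94.99, 64.3 and 107 with FST, 132, 119 and 116 with LIN28B, and 112, 125 and 111 with both. Every library with LIN28B lay above every library without it. The log2 fold change was 0.39 in LIN28B (95% interval 0.06 to 0.72, edgeR adjusted p = 0.156), 0.31 in FST+LIN28B (-0.02 to 0.64, adjusted p = 0.362), 0.39 in FST+LIN28B against FST (0.05 to 0.72, adjusted p = 0.235) and -0.08 in FST (-0.41 to 0.25). Without FST library 2 the LIN28B difference was 0.39 with an adjusted p of 0.00933, the 1 call among members.

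The fold change of its partner Rps27 was close to 0. It was at 431, 466 and 456 CPM in control, 509, 332 and 512 with FST, 448, 425 and 481 with LIN28B, and 446, 464 and 444 with both, with log2 fold changes of 0.00 in each condition (95% interval -0.31 to 0.32 in LIN28B). On the TPM scale Rps27l made up 10.4%, 10.8% and 10.02% of the sum of both genes in control, 9.51%, 9.90% and 10.5% with FST, 14.3%, 13.6% and 11.97% with LIN28B, and 12.2%, 13.2% and 12.3% with both. The 6 libraries with LIN28B thus lay above the 6 without in this share as well, FST library 2 included. This share is drawn from the same Rps27l counts, and no share of all genes stands beside it.

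Rpl7l1, a paralog of Rpl7, was at 127, 140 and 133 CPM in control, 151, 104 and 143 with FST, 170, 173 and 158 with LIN28B, and 157, 161 and 132 with both. It lay above control in all 3 LIN28B libraries, by 0.32 on the log2 scale (95% interval 0.04 to 0.61, edgeR adjusted p = 0.173), while FST+LIN28B overlapped control. Rpl7 itself was at 1577 to 1664 CPM in control and 1664 to 1811 in LIN28B, and Rpl7l1 was 3.47% to 4.10% of the sum of both in TPM in control, 4.44% to 4.91% in LIN28B, 3.66% to 4.06% in FST and 3.75% to 4.10% in FST+LIN28B.

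Rpl22l1 was at 70.5, 67.1 and 74.9 CPM in control, 81.8, 59.4 and 87.3 with FST, 87.7, 77.8 and 86.3 with LIN28B, and 75.5, 72.7 and 82.6 with both. The LIN28B difference was 0.25 (95% interval -0.03 to 0.52, edgeR adjusted p = 0.308), and FST+LIN28B overlapped control. Its partner Rpl22, which represses it in mouse, was at 347 to 387 CPM in control and 332 to 391 in LIN28B. Rpl22l1 was 17.9% to 21.1% of the TPM sum of both in control, 22.9% to 24.0% in LIN28B, 21.3% to 23.7% in FST and 19.9% to 22.3% in FST+LIN28B, so that FST lay above control as well and FST+LIN28B overlapped it. Rpl39, the partner of the scarcely counted Rpl39l, was at 361 to 396 CPM in control, 280.1 to 424 with FST, 303 to 365 with LIN28B, and 327 to 379 with both.

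**Figure D5:**
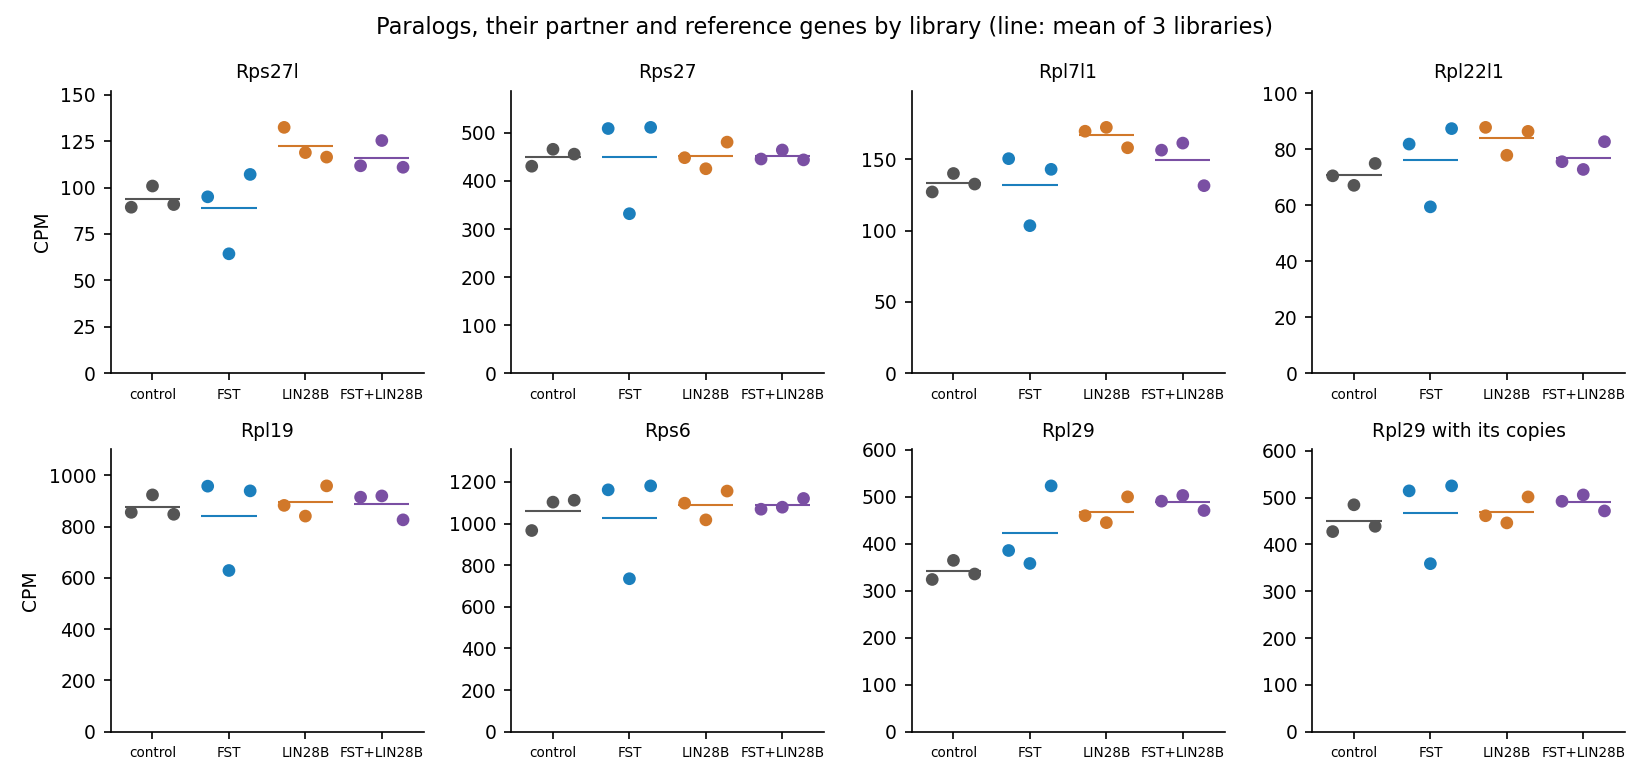
CPM of the paralogs Rps27l, Rpl7l1 and Rpl22l1, of Rps27, Rpl19 and Rps6, and of Rpl29 alone and with its copies, by library, with the mean of each condition (lines). For Rps27l the 6 libraries with LIN28B (111 to 132 CPM) lie above the 6 without (64.3 to 107 CPM), and Rpl29 overlaps between conditions with its copies added.

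Genes around the ribosome were read from other lists for comparison. Among 51 ribosome assembly factors, edgeR called 2 in LIN28B against control, both higher, where 3.43% of all genes were called, and 19 had an unadjusted p under 0.05, beside 21.2% of all genes. In the same comparison DESeq2 called 5 (Gnl3, Imp4, Tsr1, Utp4 and Wdr12) and limma 1 (Utp4). The 3.43% of all genes is that of edgeR and does not apply to these calls. The median log2 fold change of the list there was 0.24, beside -0.03 over all genes, and in FST+LIN28B against control, where edgeR called 0 and DESeq2 called Imp4 and Wdr12, it was 0.18 with 10 under an unadjusted 0.05, beside 15.8% of all genes. Wdr12, a factor of the large subunit, was at 42.03 to 43.4 CPM in control and 53.3 to 59.4 in LIN28B (0.39, SE 0.07, edgeR adjusted p = 0.00742), and Utp4, of the small subunit processome, at 51.4 to 57.2 and 73.5 to 76.9 CPM (0.47, SE 0.09, adjusted p = 0.00841). Myc, the transcription factor that drives ribosome synthesis genes, was the 1 of 4 Myc genes that edgeR called. It was at 4.59 to 5.28 CPM in control, 12.9 to 18.6 in LIN28B (1.69, SE 0.19, adjusted p = 0.000373) and 4.91 to 7.16 in FST+LIN28B, which fell by 1.33 against LIN28B (SE 0.19, edgeR adjusted p = 0.00351). DESeq2 also called Mycl and Mycn in FST+LIN28B against control, Mycn in FST+LIN28B against LIN28B and Mycl in FST+LIN28B against FST.

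In the remaining lists of the translation machinery edgeR called 0 genes in any comparison, and the values that follow are for LIN28B against control, where 21.2% of all genes had an unadjusted p under 0.05. They were 19 genes of RNA polymerase I and its factors, with a median log2 fold change of 0.06 and 6 genes under an unadjusted p of 0.05, 13 chaperones and importers of ribosomal proteins (0.05, 0 genes), and 16 genes of the mTORC1 and S6 kinase arm (0.02, 5 genes). They were also 29 initiation factors (0.09, 2 genes), 8 elongation factors (0.19, 2 genes), 6 ubiquitin fusion and ribosome-bound proteins (0.03, 0 genes), 78 mitochondrial ribosomal proteins (0.04, 2 genes), and 7 tested of 14 other mRNAs known to start with an oligopyrimidine tract (0.06, 1 gene). In that comparison DESeq2 called Eef2k and Larp4 of the mTORC1 arm and Vim of the oligopyrimidine list, and limma called Rrn3, an initiation factor of RNA polymerase I.

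Among the cell type markers, Nefl and Nefm, neurofilament genes of neurons, were higher in LIN28B against control (by 2.46 and 1.22 on the log2 scale, edgeR adjusted p = 0.00879 and 0.00873), 2 of the 7 neuronal markers tested of 8. Both were at low levels. Nefl was at 0.315 to 0.671 CPM in control and 1.88 to 2.82 in LIN28B, and Nefm at 3.48 to 5.40 and 10.1 to 12.5 CPM. In that comparison edgeR called 3.43% of all genes, and 21.2% of all genes had an unadjusted p under 0.05. The summed neuronal markers were at 117 to 137 CPM in control, 130 to 184 with FST, 139 to 154 with LIN28B, and 127 to 181 with both. Of the 12 markers of cochlear epithelium and supporting cells, 9 had an unadjusted p under 0.05 in LIN28B against control, and their median log2 fold change was -0.27, beside -0.03 over all genes. Prox1 was the 1 that edgeR called, and it was higher (1.69, adjusted p = 0.00879), DESeq2 called Prox1 and S100a1, and limma called S100a1. The summed cochlear markers were at 2897 to 3255 CPM in control, 2952 to 3554 with FST, 2549 to 2832 with LIN28B, and 2902 to 3007 with both. In LIN28B against control edgeR, DESeq2 and limma called 0 markers of Schwann, immune, endothelial, erythroid or mesenchymal cells, of which 1 Schwann cell and 3 mesenchymal markers had an unadjusted p under 0.05, and the erythroid marker Hbb-bt was at 0 in all libraries. The part of these cell types in the members' values was not tested.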

How the data were processed

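RNA of 12 organoid libraries was sequenced by the authors as stranded total RNA in pairs of 50 bases and pseudo-aligned with kallisto 0.46.1 to the Ensembl 96 mouse transcriptome (GRCm38). The deposited values are estimated counts per transcript with effective lengths, and TPM were computed from them. Of 118489 transcripts, 116816 matched GENCODE M21 genes, and 1673 did not (0.543% to 0.598% of counts). The counts of a gene's transcripts were added and the sum rounded.

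edgeR 4.0.16 (R 4.3.3) tested 18780 genes that passed filterByExpr (min.count 10, min.total.count 15), with TMM and robust quasi-likelihood in 1 fit over all libraries, at an adjusted p under 0.01. Intervals are 95% from the fit, and SE is the log2 fold change over the square root of F. The 3 animals per condition set the spread, and counts carry no molecular identifiers, so that a limit of 3 counts covers counting error only. Scripts were tested on simulated data.

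Named genes were Rpl19 and 14 members with a fixed role, paralogs with partners, called members, the 3 highest and 3 lowest by TPM, the 3 of smallest p where none was called, and called genes of the other lists. Members and lists were chosen with earlier results of these data known. Alternatives were DESeq2 1.42.0, limma 3.58.1 on log2(TPM + 1) and log2(TPM + 0.1), other normalizations, filters, transcript sets and samples, a replicate block, and each library left out. Adding near-identical copies, with all libraries or without FST library 2, was chosen after seeing the data. Python 3.11.15 was used. No table column of another series was present.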

Additional observations from a re-analysis of the deposited data

How the results depend on the processing

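Of 1094 values under other settings, 1046 were counted as unchanged. Differences in share and in single genes then kept their direction and side of the threshold, and counts of called members stayed at 0. Medians counted as unchanged if they moved by no more than 0.194 on the log2 scale, whatever their sign. This limit is the SD of library medians within conditions, FST library 2 included. The FST median, -0.02 with all libraries and 0.16 without FST library 2, thus counted as unchanged. Share tests of 3 against 3 libraries cannot go below 0.1, so they could change direction but not reach 0.05. The count of unchanged values is therefore no measure of stability. Leaving out 1 library, the median member ran from -0.144 to 0.160 in FST against control and from -0.155 to 0.159 in the interaction. In FST+LIN28B against control it stayed at 0.0162 to 0.0882. No member was called with a replicate block, where the median member was at -0.04 in FST and 0.02 in LIN28B against control and Rpl29 had an edgeR adjusted p of 0.0752 in LIN28B. The labels state no link between same-numbered libraries. Correlations of same-numbered deviations ran from -0.33 to 0.18, with 3 of 18 over 0.1. They cannot decide whether such libraries had a common origin, since differently numbered pairs were not compared. DESeq2 called 1 member in LIN28B, 1 in FST+LIN28B and 1 for any difference, always Rpl29, and fits of only the conditions compared called 2 (Rpl29, Rps18) and 1 (Rpl29). No share of all genes under these settings stands beside these calls. Leaving out 1 library, LIN28B gave 0 to 1 calls, and with copies added and FST library 2 left out it gave 1. Differences in the members' share of counts changed sign under several settings, and without FST library 2 both other FST libraries lay above every control. Leaving out 1 library, they ran from -0.378 to 0.364 points in FST, -0.0533 to 0.171 in LIN28B, -0.109 to 0.0383 in FST+LIN28B, -0.118 to 0.179 for all LIN28B libraries and -0.191 to 0.106 for all FST libraries. The LIN28B share was -0.0128 with named pseudogenes and -0.0796 with copies. With copies and without FST library 2, the shares were 0.271 in FST, -0.184 for all LIN28B libraries and 0.105 for all FST libraries, Rps12 was at 0.14 in FST against control, -0.17 in FST+LIN28B against FST and -0.15 in the interaction, Rpl19 at 0.12 in FST, and the median member at -0.12 in FST+LIN28B against FST. Rps18 in FST+LIN28B was at -0.0212 with copies and -0.0206 with copies and without FST library 2. Rpl3 in FST+LIN28B against LIN28B was at 0.000794 with named pseudogenes, 0.000654 with copies and -0.511 to 0.0417 leaving out 1 library. Rpl19 changed sign, in LIN28B -0.0182 when scaled to the summed members and -0.00572 to 0.0830 leaving out 1 library, in FST -0.18 to 0.12, and in FST+LIN28B -0.0272 by library size alone, -0.0255 by the summed members, -0.0327 by both limma fits, -0.00819 with protein-coding transcripts and -0.00610 to 0.0742 leaving out 1 library. The cause of these changes, with shared reads and FST library 2 included, was not tested. With 3 libraries a condition and an interval of -0.29 to 0.35 for Rpl19 in LIN28B, changes of that size were not detectable.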
